A study of Arabidopsis thaliana with 12 samples.

Results

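The SnRK2 family of Arabidopsis thaliana holds the 10 protein kinase genes SnRK2.1 to SnRK2.10, found by their gene identifiers among the 33602 genes of the deposited count table. They were followed in young material of Col-0, the wild type, and of camta6-5, a mutant allele of CAMTA6, the gene of a calmodulin-binding transcription activator. Seeds of both genotypes were cold stratified and kept on agar medium with 0 or 200 mM NaCl for 16 hours, and RNA was taken from what the labels call pre-germinated seedlings. The 4 groups of 3 libraries are wild-type control, wild-type NaCl, camta6-5 control and camta6-5 NaCl. The mutant is represented by a single allele.

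SnRK2 kinases are plant relatives of the yeast kinase SNF1 that are switched on by osmotic stress and, for some members, by the hormone abscisic acid (ABA). In the absence of ABA, clade A protein phosphatases of type 2C (PP2C) keep the ABA-activated kinases silent. ABA bound to a PYR/PYL receptor blocks the phosphatase, Raf-like kinases phosphorylate the SnRK2, and the kinase acts on transcription factors of the ABI5/ABF family, ion channels and other proteins. The pathway is known for holding back germination and for closing stomata. Subclass III (SnRK2.2, SnRK2.3 and SnRK2.6) is strongly activated by ABA, subclass II (SnRK2.7 and SnRK2.8) weakly, and subclass I (SnRK2.1, SnRK2.4, SnRK2.5, SnRK2.9 and SnRK2.10) is not activated by ABA. Osmotic stress activates the subclass I kinases other than SnRK2.9. The table names SnRK2.1 and SnRK2.4 by the older symbols ASK2 and ASK1, which other Arabidopsis genes of the SKP1-like family also bear, so the kinases were taken by identifier.

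Several members are close copies, and a read can be credited to a gene only where the copies differ. The coding sequences of SnRK2.1 and SnRK2.5 were identical at 86.8% of 1062 aligned bases, those of SnRK2.4 and SnRK2.10 at 86.8% of 1083, and those of SnRK2.2 and SnRK2.3 at 83.7% of 1086. No other pairing exceeded 76.3%. The stretches below hold the longest run of identical coding bases of each of these 3 pairs, which is where reads tell the copies apart least. Capitals mark the bases that differ, and the sequences are read 5′ to 3′ from RefSeq's TAIR10.1 genome.
SnRK2.4: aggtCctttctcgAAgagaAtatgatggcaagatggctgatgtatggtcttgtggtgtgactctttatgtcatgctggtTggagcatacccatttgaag
SnRK2.10: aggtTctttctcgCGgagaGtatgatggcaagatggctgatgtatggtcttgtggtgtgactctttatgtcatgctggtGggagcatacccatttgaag
SnRK2.2: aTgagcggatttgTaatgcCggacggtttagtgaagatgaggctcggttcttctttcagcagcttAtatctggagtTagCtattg
SnRK2.3: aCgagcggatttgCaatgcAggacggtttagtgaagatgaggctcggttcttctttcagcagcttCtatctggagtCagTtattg
SnRK2.1: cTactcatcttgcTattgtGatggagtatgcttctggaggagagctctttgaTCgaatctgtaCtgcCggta
SnRK2.5: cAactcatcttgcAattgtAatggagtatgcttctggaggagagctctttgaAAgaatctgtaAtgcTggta
Counted from the first base of the coding sequence, these are bases 530 to 628 of SnRK2.4, 506 to 604 of SnRK2.10, 314 to 398 of SnRK2.2, 311 to 395 of SnRK2.3, and 209 to 280 of both SnRK2.1 and SnRK2.5. The shared runs were 59, 45 and 32 bases long. In whole transcripts, SnRK2.4 and SnRK2.10 shared 10 windows of 50 bases with each other and 0 windows of 100 bases. SnRK2.5 shared 20.4% of its windows of 50 bases with AT5G63640 and SnRK2.8 shared 6.6% with AT1G78280, because each overlaps that neighbour on the opposite strand in the RefSeq annotation. The library kit does not mark the strand, so reads from those ends cannot be assigned by strand. The other 6 members shared no window of 50 bases with a transcript of another gene.

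Library totals ran from 29473212 to 35450685 counts. Of the 10 members, 8 passed the filter on low counts, and SnRK2.7 and SnRK2.9 did not. Levels are in CPM, TMM-scaled counts relative to the library size. CAMTA6 itself had 34.8 ± 1.34 CPM under the camta6-5 label and 17.8 ± 2.79 CPM in wild type without NaCl (SD, n = 3), so it was not reduced, and gene totals leave unknown where along the transcript its reads fell. TPR1, a co-repressor gene, averaged 101 ± 1.88 CPM without NaCl and 77.3 ± 3.75 CPM with NaCl for wild type, against 6.34 ± 1.57 and 7.28 ± 1.16 CPM under the camta6-5 label, and the part of this second difference between the lines in the genotype comparisons was not tested. The genotype below is that of the label. The share of counts on 18S rRNA ranged from 0.0211% to 1.03% over the libraries. Its mean in wild type was 0.205 ± 0.263% without and 0.0422 ± 0.0283% with NaCl (SD, n = 3). For camta6-5 it was 0.557 ± 0.459% and 0.353 ± 0.261%. Libraries of a group differed widely, as in wild-type control with 0.508%, 0.0718% and 0.0343%. All 7 markers fixed for seed reserves and oil bodies were detected, while the 3 root hair markers had 0, 1 and 1 counts over the 12 libraries. Summed over the 7 genes, the seed markers ranged without NaCl from 572 to 886 CPM (wild type) and from 643 to 1336 CPM (camta6-5). With NaCl the sums ran from 10250 to 12070 CPM and from 10170 to 16800 CPM, respectively. CRA1 was the largest part of the NaCl sums, at 9091 ± 2406 CPM under the mutant label against 4639 ± 517.5 for Col-0. Each of the other seed markers had a lower NaCl mean under the mutant label. AT2S3 had 443.7 ± 76.17 against 1612 ± 173.2 CPM and SESA1 60.07 ± 10.73 against 213.7 ± 4.023 CPM. OLEO1 differed least in proportion, with 1212 ± 178.9 against 1361 ± 133.5 CPM. The 4 endosperm markers, all detected, summed to 40.6 to 119 CPM (wild type) and 42.8 to 57.0 CPM (camta6-5) without NaCl, and to 42.7 to 60.1 CPM and 60.1 to 88.1 CPM with it. These sums pool markers that differed in direction. In wild type ATEXPA2 had 30.85 ± 21.3 CPM without and 6.02 ± 2.48 CPM with NaCl, and ATEPR1 26.3 ± 17.75 and 32.75 ± 10.9 CPM. In camta6-5 ATEXPA2 had 17.3 ± 5.13 CPM without and 23.7 ± 5.545 CPM with NaCl. The part of these markers in the results below was not tested. In such bulk material, fewer cells of a type and less RNA per cell cannot be told apart.

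Levels of different members were compared per length, as CPM per kilobase of merged exons. In wild-type control the order was SnRK2.2 (60.9 ± 4.81 CPM per kilobase, SD, n = 3), SnRK2.3 (48.1 ± 2.78), SnRK2.10 (27.4 ± 1.19), SnRK2.1 (20.7 ± 0.953), SnRK2.4 (17.1 ± 0.909), SnRK2.8 (7.03 ± 0.614), SnRK2.6 (2.74 ± 0.65) and SnRK2.5 (2.62 ± 0.637). Among these 8, libraries of neighbours did not overlap except for SnRK2.6 and SnRK2.5. SnRK2.7 and SnRK2.9 came last with 0.0575 and 0.0279 CPM per kilobase, and their libraries overlapped. With NaCl in wild type SnRK2.10 stood at the top with 76.3 ± 5.65 CPM per kilobase, beside SnRK2.2 with 73.1 ± 0.391, and the libraries of these members overlapped. SnRK2.10 also overlapped SnRK2.3 (65.9 ± 5.15) there, with a lowest library of 69.8 against a highest of 71.25 CPM per kilobase. In camta6-5 NaCl SnRK2.10 remained the third with 44.9 ± 4.13 CPM per kilobase, below SnRK2.2 (74.0 ± 3.96) and SnRK2.3 (61.0 ± 2.14) with no overlap.

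The summed per-length level of the 10 genes was 187 ± 6.64 CPM per kilobase in wild-type control and 187 ± 7.37 in camta6-5 control. It was 264 ± 12.9 in wild-type NaCl and 228 ± 12.1 in camta6-5 NaCl, and the libraries with NaCl all lay above those without. The make-up of the sum also differed, a measure that library scaling cannot move. For wild type, subclass III held 59.8 ± 1.51% of it without NaCl and 54.3 ± 0.97% with NaCl, and subclass I held 36.4 ± 1.09% and 43.0 ± 0.379%. For camta6-5, subclass III held 59.1 ± 2.37% and 60.4 ± 1.54%, and subclass I 37.7 ± 1.99% and 37.0 ± 1.64%. Subclass II held 2.66 to 3.81% on average in every group. In both subclasses the 3 wild-type NaCl libraries lay outside the range of the other 9. Within subclass I, SnRK2.10 went from 14.7 ± 0.611% to 28.8 ± 0.794% of the family in wild type while SnRK2.1 went from 11.1 ± 0.324% to 4.09 ± 0.391%. In camta6-5 SnRK2.10 went from 15.1 ± 0.609% to 19.7 ± 0.908% and SnRK2.1 from 12.6 ± 1.06% to 8.32 ± 0.652%. These shares are descriptions with no test.

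**Figure D1:**
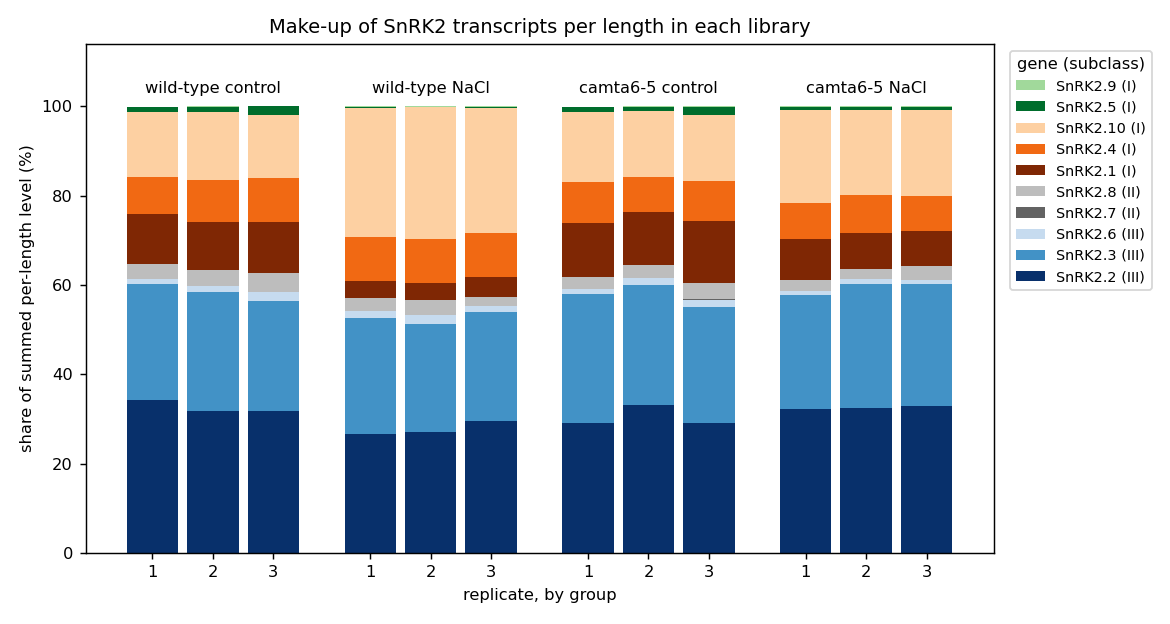
Stacked bars give the share (%) of each SnRK2 gene in the summed per-length level of the family, 1 bar per library, in the 4 groups of 3 libraries. SnRK2.10 makes up 28.8% on average in wild-type NaCl against 14.7% in wild-type control and 19.7% in camta6-5 NaCl, and SnRK2.1 shrinks to 4.09% in wild-type NaCl.

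The response to NaCl in the wild type was asked first. Of the 8 tested members 5 rose (SnRK2.2, SnRK2.3, SnRK2.4, SnRK2.6 and SnRK2.10), 2 fell (SnRK2.1 and SnRK2.5) and SnRK2.8 did not pass. A call is an adjusted p under 0.05 in edgeR's quasi-likelihood test over 18515 genes. Among all tested genes 37.9% were called higher and 39.6% lower, 77.5% in all, so 7 calls of 8 are close to the background. The members' median log2 change was 0.36, beside -0.015 over all genes. In 7 of the 8 members the NaCl libraries did not overlap the control libraries, which held for 80.7% of all tested genes. Each pair of close copies moved in 1 direction in wild type: SnRK2.4 and SnRK2.10 rose, SnRK2.2 and SnRK2.3 rose, and SnRK2.1 and SnRK2.5 fell. How often other pairs of genes share a direction was not tested.

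In the libraries labelled camta6-5, 3 members rose with NaCl (SnRK2.2, SnRK2.3 and SnRK2.10) and 2 fell (SnRK2.1 and SnRK2.5), where 28.2% of all tested genes were higher and 27.5% lower (55.6% in all). Their median log2 change was 0.13, beside 0.0059 over all genes. Libraries with and without NaCl did not overlap for 6 of the 8 members and for 62.1% of all genes. Without NaCl, edgeR called 0 of the 8 members between the genotypes, and 0 passed an unadjusted p of 0.05, with 0 calls also in DESeq2 and limma voom. The lowest adjusted p was 0.48, and 0.216% of all tested genes were called (0.0864% higher and 0.13% lower). All 8 members overlapped, while 13.7% of all genes did not. The 95% interval of the difference was narrowest for SnRK2.2 (-0.26 to 0.055 on the log2 scale) and widest for SnRK2.5 (-0.55 to 0.55). With NaCl, SnRK2.1 and SnRK2.5 were higher in camta6-5 than in wild type and SnRK2.4, SnRK2.6 and SnRK2.10 lower, where 33.8% of all genes were higher and 28.5% lower (62.3% in all). The genotypes did not overlap for these 5 members, as for 70% of all genes. The difference between the responses, tested as the genotype by NaCl interaction (the response in camta6-5 minus that in wild type), passed for the same 5 members: 2 higher and 3 lower, where 27.1% of all genes were higher and 21% lower (48.1% in all). The interaction and the comparison with NaCl share the 6 NaCl libraries and are not independent.

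Without the 5 libraries richest in 18S rRNA (wild-type control replicate 1, camta6-5 control replicates 1 and 3, camta6-5 NaCl replicates 1 and 2), a setting added after the data had been seen, the counts in wild type were the same, while in camta6-5 1 member was called higher with NaCl and 0 lower, and in the interaction 2 were higher and 1 lower. That fit has 1 library in each camta6-5 group, which is assumed to vary like the others. Over all genes it called 73% for NaCl in wild type, 27.7% for NaCl in camta6-5 and 24.1% in the interaction.

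**Figure D2:**
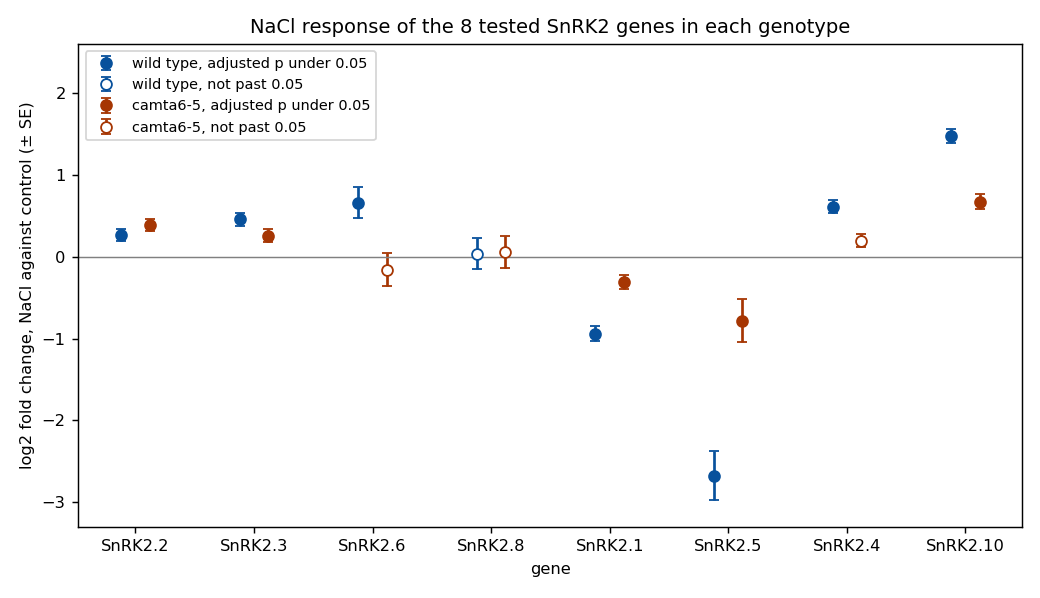
Log2 fold change of NaCl against control (vertical axis, ± SE from the edgeR test) for the 8 tested SnRK2 genes in wild type and in camta6-5, with filled points for adjusted p under 0.05. The wild-type values run from -2.67 for SnRK2.5 to 1.48 for SnRK2.10 and those of camta6-5 from -0.78 to 0.67.

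**Figure D3:**
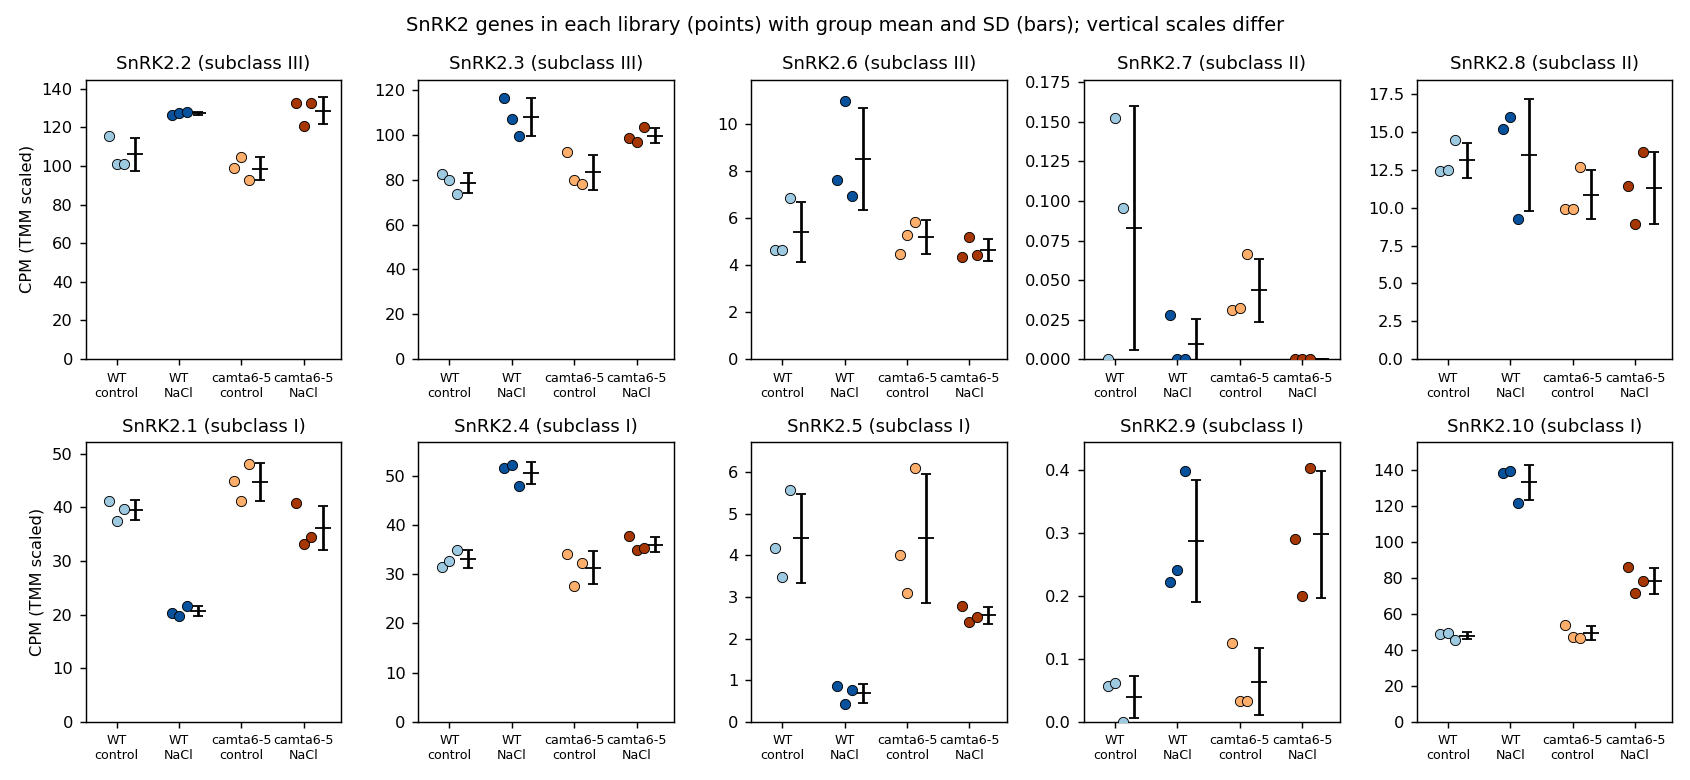
Level of each SnRK2 gene in CPM (vertical axis, separate scale per gene) in the 12 libraries, as points by group with the group mean and SD as bars. SnRK2.10 lies at 45.5 to 49.2 CPM in wild-type control and 122 to 139 CPM in wild-type NaCl, with camta6-5 NaCl between them at 71.5 to 85.9 CPM.

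Among the ABA-activated kinases of subclass III, SnRK2.2 (AT3G50500, TAIR10 chromosome 3, 18741590 to 18744157) works with SnRK2.3 in the ABA control of germination and seedling growth. It had 116, 101 and 101 CPM in wild-type control and 127, 127 and 128 CPM in wild-type NaCl. In camta6-5 it had 98.7, 105 and 92.5 CPM without NaCl and 133, 121 and 133 CPM with it. NaCl libraries lay above control libraries in both genotypes, and those of the genotypes overlapped. SnRK2.2 rose by 0.26 ± 0.073 on the log2 scale in wild type (SE, edgeR adjusted p = 0.0047) and by 0.38 ± 0.0731 in camta6-5 (edgeR adjusted p = 0.000689). The responses were not shown to differ: the interaction was 0.12 (95% interval -0.10 to 0.34, edgeR adjusted p = 0.36). Without the 5 libraries richest in 18S rRNA, the rise in camta6-5 did not pass (0.34, edgeR adjusted p = 0.0607), where the alternatives ranged from 2.58e-05 to 0.0607.

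SnRK2.3 (AT5G66880, chromosome 5, 26710555 to 26712971) had 82.4, 79.7 and 73.6 CPM in wild-type control and 116, 107 and 99.7 CPM in wild-type NaCl. Its values in camta6-5 were 92.2, 79.8 and 77.9 CPM without NaCl and 98.7, 96.8 and 104 CPM with it, again without overlap between treatments. The rise was 0.46 ± 0.0817 on the log2 scale in wild type (edgeR adjusted p = 0.000179) and 0.26 ± 0.0817 in camta6-5 (edgeR adjusted p = 0.0162). The interaction did not pass (-0.20, 95% interval -0.45 to 0.052, edgeR adjusted p = 0.175). The call in camta6-5 was lost without camta6-5 control replicate 3 (0.21, edgeR adjusted p = 0.0614), without camta6-5 NaCl replicate 3 (0.23, 0.0589) and without the 5 libraries richest in 18S rRNA (0.37, 0.0817), with a range of 0.00424 to 0.0817 over the alternatives. In the table's coordinates its end overlaps AT5G66890 by 28 bases.

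SnRK2.6 (AT4G33950, chromosome 4, 16271973 to 16274810), also called OST1, is the kinase through which ABA closes stomata. Of the guard cell markers KAT1 had 0 counts and MYB60 had 2 over the 12 libraries, and SLAC1, the anion channel gene that is its best-known target, had 75. FAMA had 206, MUTE 748 and SPCH, which acts earliest in the stomatal lineage, 4956, so the sum of the list is mostly SPCH. Summed over the 6 markers of that list, of which 5 had any count, the level went from 21.3 to 23.5 CPM (wild type) and 16.5 to 18.3 CPM (camta6-5) without NaCl to 6.40 to 9.27 CPM and 13.3 to 14.3 CPM with NaCl, and its part in the SnRK2.6 values was not tested. SnRK2.6 had 4.65, 4.64 and 6.86 CPM in wild-type control and 7.62, 10.97 and 6.94 CPM in wild-type NaCl. The camta6-5 libraries held 4.45, 5.28 and 5.85 CPM without NaCl and 4.35, 5.18 and 4.42 CPM with it. The wild-type groups were separate only by a small gap, and those of camta6-5 overlapped. SnRK2.6 rose by 0.66 ± 0.193 on the log2 scale in wild type (edgeR adjusted p = 0.00664), whereas its value in camta6-5 was -0.16 ± 0.2 (95% interval -0.59 to 0.28, edgeR adjusted p = 0.529). With NaCl it was lower in camta6-5 than in wild type (-0.87 ± 0.195, edgeR adjusted p = 0.00168). The interaction of -0.82 ± 0.278 passed (edgeR adjusted p = 0.0269), with a range of 0.00596 to 0.195 over its alternatives. It was lost in the fits without wild-type control replicate 1 (edgeR adjusted p = 0.0607) or 2 (0.0589), wild-type NaCl replicate 2 (-0.61, 0.0733), camta6-5 control replicate 3 (0.056), camta6-5 NaCl replicate 1 (0.0603) or 3 (0.0529), and without the 5 libraries richest in 18S rRNA (-0.85, 0.195).

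In subclass II, SnRK2.8 (AT1G78290, chromosome 1, 29457205 to 29459400), a kinase linked to growth and drought responses, had 12.4, 12.5 and 14.5 CPM in wild-type control and 15.2, 16.0 and 9.27 CPM in wild-type NaCl. For camta6-5 the values were 9.92, 9.91 and 12.7 CPM without NaCl and 11.4, 8.91 and 13.7 CPM with it. All 4 groups overlapped. The NaCl change was 0.039 in wild type (95% interval -0.38 to 0.46 on the log2 scale, edgeR adjusted p = 0.861) and 0.061 in camta6-5 (-0.37 to 0.49, edgeR adjusted p = 0.81), so that changes up to about the upper bounds of 1.37-fold and 1.40-fold are not excluded. Against wild type with NaCl, camta6-5 differed by -0.25 (edgeR adjusted p = 0.273), and passed only without wild-type NaCl replicate 3 (-0.49, edgeR adjusted p = 0.0227), with a range of 0.0227 to 0.958 over the alternatives. AT1G78280, which overlaps SnRK2.8 by 169 bases in the table's coordinates, went from 79.7 ± 18.2 to 51.4 ± 2.84 CPM in wild type and from 66.4 ± 5.55 to 45.5 ± 3.07 CPM in camta6-5. Its part in the SnRK2.8 counts was not tested. SnRK2.7 (AT4G40010, chromosome 4, 18548704 to 18551056) was close to undetected. It had 0, 5 and 3 counts in wild-type control, 1, 0 and 0 in wild-type NaCl, 1, 1 and 2 in camta6-5 control and 0 in each camta6-5 NaCl library. A count of 0 over that group allows up to 0.0302 CPM, taking 3 counts as the limit. The ratio of NaCl to control in wild type was 0.119, with a 95% counting interval of 0.00268 to 0.887 that covers counting error only. In camta6-5 the interval of that ratio reached 1.42. In the fit without a filter SnRK2.7 did not pass in wild type (edgeR adjusted p = 0.0916) or in camta6-5 (0.13).

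Subclass I held the largest rise and the largest fall among the tested members in wild type. SnRK2.10 (AT1G60940, chromosome 1, 22439123 to 22442217) and its close copy SnRK2.4 are known to act in roots under salt, where both become active within minutes. SnRK2.10 had 49.0, 49.2 and 45.5 CPM in wild-type control and 138, 139 and 122 CPM in wild-type NaCl. Under the camta6-5 label it had 53.7, 47.1 and 46.6 CPM without NaCl and 85.9, 71.5 and 78.0 CPM with it. The 4 groups formed 3 separate levels: both controls together, camta6-5 NaCl above them and wild-type NaCl above that. It rose by 1.48 ± 0.0871 on the log2 scale in wild type (2.78-fold, edgeR adjusted p = 7e-09) and by 0.67 ± 0.0863 in camta6-5 (1.60-fold, edgeR adjusted p = 3.27e-05). The interaction was -0.80 ± 0.121 (edgeR adjusted p = 0.000195) and kept its call in each of its 20 alternatives, with adjusted p up to 0.013.

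SnRK2.4 (AT1G10940, chromosome 1, 3655777 to 3658608) had 31.5, 32.8 and 34.98 CPM in wild-type control and 51.6, 52.1 and 48.0 CPM in wild-type NaCl. Among camta6-5 libraries it reached 34.0, 27.6 and 32.3 CPM without NaCl and 37.7, 34.8 and 35.3 CPM with it. Wild-type NaCl stood apart from all other libraries, and the camta6-5 groups were separated by less than 1 CPM. The rise in wild type was 0.61 ± 0.0823 on the log2 scale (1.53-fold, edgeR adjusted p = 1.35e-05). In camta6-5 the change of 0.20 ± 0.0829 did not pass (edgeR adjusted p = 0.0574), but did so with no scaling factors (0.24, edgeR adjusted p = 0.045) and without camta6-5 control replicate 1 (0.26, 0.0296), over a range of 0.0296 to 0.214. The interaction was -0.41 ± 0.117 (edgeR adjusted p = 0.0105), and it was lost only without the 5 libraries richest in 18S rRNA (-0.26, edgeR adjusted p = 0.275), over a range of 0.00144 to 0.275.

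SnRK2.1 (AT5G08590, chromosome 5, 2783331 to 2786094) is one of the subclass I kinases known to phosphorylate the mRNA decapping protein VARICOSE under osmotic stress. It had 41.1, 37.5 and 39.7 CPM in wild-type control and 20.3, 19.8 and 21.6 CPM in wild-type NaCl. The mutant label gave 44.9, 41.1 and 48.1 CPM without NaCl and 40.9, 33.1 and 34.5 CPM with it. Wild-type NaCl was far below every other library, and the camta6-5 groups only just failed to overlap. SnRK2.1 fell by 0.94 ± 0.0903 on the log2 scale in wild type (edgeR adjusted p = 5.47e-07) and by 0.31 ± 0.0885 in camta6-5 (edgeR adjusted p = 0.0101). The fall in camta6-5 was lost without the 5 libraries richest in 18S rRNA (-0.26, edgeR adjusted p = 0.189, over a range of 0.00155 to 0.189). The interaction of 0.63 ± 0.126 (edgeR adjusted p = 0.00125) passed in each of its 20 alternatives, with adjusted p up to 0.0285.

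SnRK2.5 (AT5G63650, chromosome 5, 25481517 to 25483719), the close copy of SnRK2.1, had 4.17, 3.48 and 5.58 CPM in wild-type control and 0.862, 0.421 and 0.767 CPM in wild-type NaCl. In the camta6-5 libraries there were 4.01, 3.10 and 6.11 CPM without NaCl and 2.78, 2.39 and 2.51 CPM with it. Wild-type NaCl was lowest with no overlap, and control replicate 3 was the highest of its group in both genotypes. The fall in wild type was -2.67 ± 0.301 on the log2 scale, or 6.39-fold (edgeR adjusted p = 2.44e-06). In camta6-5 it was -0.78 ± 0.262 (edgeR adjusted p = 0.0221), and that call was lost without camta6-5 control replicate 3 (-0.47, edgeR adjusted p = 0.136), without camta6-5 NaCl replicate 2 (-0.73, 0.0624) or 3 (-0.77, 0.0554) and without the 5 libraries richest in 18S rRNA (-0.31, 0.646), over a range of 0.00718 to 0.646. The interaction of 1.895 ± 0.4 passed (edgeR adjusted p = 0.00185), also in each of its 20 alternatives, with adjusted p up to 0.0191. The neighbour AT5G63640, which overlaps 382 exon bases of SnRK2.5 in RefSeq but none in the table's coordinates, went the other way, from 37.4 ± 0.684 to 66.0 ± 3.57 CPM in wild type and from 37.2 ± 0.555 to 41.7 ± 2.44 CPM in camta6-5.

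SnRK2.9 (AT2G23030, chromosome 2, 9803492 to 9806700), the member that osmotic stress was not found to activate, was near the detection limit. It had 2, 2 and 0 counts in wild-type control and 8, 8 and 14 in wild-type NaCl. For the camta6-5 label there were 4, 1 and 1 counts without NaCl and 10, 7 and 12 with it. NaCl libraries were above control libraries in both genotypes. The ratio of NaCl to control was 7.13 in wild type (95% counting interval 2.51 to 27.9) and 4.52 in camta6-5 (1.84 to 13.3). It did not pass the filter, and in the fit without a filter it was higher with NaCl in wild type (log2 2.73, edgeR adjusted p = 0.00218) and in camta6-5 (log2 2.12, edgeR adjusted p = 0.0138).

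The 300 bases before the RefSeq gene start of each member were searched on both strands for 4 short motifs, since the close copies moved in pairs in wild type and CAMTA proteins and ABA-regulated bZIP factors bind short DNA elements. ACGTG, the core of the ABA response element, was in the windows of SnRK2.3, SnRK2.7 and SnRK2.9, that is 3 of 10, and in 24.3% of 32834 gene windows. CGCG, the core of the box bound by CAMTA proteins, was in those of SnRK2.2 and SnRK2.4 (2 of 10, 12.1% of all windows). CGTGT, another sequence linked to CAMTA binding, was in those of SnRK2.4, SnRK2.7 and SnRK2.9 (3 of 10, 24.4% of all). CCGAC, the core of the drought response element, was in 0 of 10 and in 14.3% of all. CGTGT overlaps ACGTG wherever ACGTGT occurs, as in the windows of SnRK2.7 and SnRK2.9. The windows of SnRK2.2 and SnRK2.3 are shown because these copies rose together and differ in these letters, and that of SnRK2.10 because it had the largest rise among the tested members in wild type and holds none of the 4 motifs. Capitals mark ACGTG or its reverse complement, and each sequence is given 5′ to 3′ on the strand of the gene from TAIR10.1.
SnRK2.3: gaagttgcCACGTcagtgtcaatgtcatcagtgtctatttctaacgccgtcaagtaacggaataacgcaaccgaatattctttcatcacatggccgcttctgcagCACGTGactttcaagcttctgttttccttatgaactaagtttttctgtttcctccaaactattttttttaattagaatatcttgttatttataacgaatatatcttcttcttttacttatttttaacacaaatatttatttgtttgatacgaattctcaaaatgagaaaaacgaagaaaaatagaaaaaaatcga
SnRK2.2: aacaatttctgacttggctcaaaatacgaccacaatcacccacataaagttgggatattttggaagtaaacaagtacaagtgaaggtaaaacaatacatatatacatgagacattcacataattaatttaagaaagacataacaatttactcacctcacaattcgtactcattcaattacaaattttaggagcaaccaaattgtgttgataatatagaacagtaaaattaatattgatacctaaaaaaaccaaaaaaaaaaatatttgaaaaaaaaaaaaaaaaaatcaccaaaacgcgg
SnRK2.10: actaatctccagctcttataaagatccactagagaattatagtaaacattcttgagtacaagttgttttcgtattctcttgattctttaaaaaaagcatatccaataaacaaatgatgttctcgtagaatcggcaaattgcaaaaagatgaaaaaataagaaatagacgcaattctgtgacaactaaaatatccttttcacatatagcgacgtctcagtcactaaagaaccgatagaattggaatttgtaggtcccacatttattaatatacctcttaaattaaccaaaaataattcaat
They lie at chr5:26710002-26710301 on the forward strand, chr3:18744175-18744474 on the reverse strand and chr1:22442222-22442521 on the reverse strand. In SnRK2.3 the matches begin 292, 195 and 194 bases before the start. Those at 195 and 194 overlap and together form CACGTG, which reads the same on both strands. In SnRK2.2 CGCG begins 5 bases before the start. A match describes the letters and is not a site shown to be bound.

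For each tested member the genes with the most similar pattern were sought, by Pearson's r of log2 CPM over the 12 libraries. Those libraries fall into 4 groups and share their scaling, so r is given as a description. SnRK2.10 was closest to AT2G42975 (r = 0.998) and AT5G42570 (0.997), and 3381 genes had r over 0.9 with it. SnRK2.4 was closest to EIF4B1, a translation initiation factor gene (AT3G26400, r = 0.991), and AT2G43520 (0.985), SnRK2.1 to AT1G05350 (0.989) and AT1G25480 (0.989), and SnRK2.5 to AT3G25150 (0.994) and AT3G56160 (0.993). SnRK2.2 was closest to AT3G19520 (0.977) and AT3G27020 (0.974), and SnRK2.3 to AT4G02920 (0.977) and AT1G10730 (0.972). Few genes had r over 0.9 with SnRK2.6 or SnRK2.8. There were 20 for SnRK2.6, led by DiT1 (AT5G12860, 0.947) and AT5G05600 (0.943). For SnRK2.8 there were 2, the cell wall invertase gene ATCWINV1 (AT3G13790, 0.931) and CER5 (AT1G51500, 0.901). The 4 groups of SnRK2.8 overlapped, so its r reflects scatter within groups as well as differences between them.

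The genes around the kinases in the pathway were described from lists chosen with earlier results of these data known. Their counts stand beside the shares over all genes in wild type given above, 37.9% higher and 39.6% lower with NaCl. Of the PYR/PYL receptors, 12 of 14 were tested, and with NaCl in wild type 4 were higher and 7 lower (median log2 change -0.97). PYR1 fell from 136 ± 6.83 to 37.1 ± 5.62 CPM, PYL1 from 12.4 ± 1.09 to 2.42 ± 0.333 CPM and PYL4 from 141.5 ± 12.4 to 26.3 ± 1.59 CPM (SD, n = 3). All 9 clade A PP2C genes were tested and rose in wild type (median 1.17), and the lowest adjusted p belonged to HAI2 (3.75 ± 0.22 on the log2 scale, SE), AHG1 (3.14 ± 0.198) and HAI3 (3.23 ± 0.231). HAI1, named after its value was seen, had the highest log2 change of the list (3.82 ± 0.614).

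Of 18 Raf-like kinases of groups B2, B3 and B4, which phosphorylate SnRK2 proteins, 12 rose and 3 fell in wild type (median 0.50). AT3G06630 went from 5.43 ± 0.419 to 20.6 ± 0.853 CPM, AT4G23050 from 48.1 ± 5.05 to 126 ± 5.26 CPM and AT2G35050 from 25.0 ± 2.41 to 46.9 ± 3.08 CPM. Of 8 bZIP substrate genes of the ABI5/ABF group 7 rose and 1 fell (median 1.38). ABI5 rose by 2.01 ± 0.11 and EEL by 1.66 ± 0.188 on the log2 scale, and DPBF2 went from 2 to 205 counts, which is 97.5-fold after scaling (95% counting interval 26.7 to 811). Of 8 other substrates 6 were tested, 2 rose and 2 fell (median -0.036). VCS, the gene of VARICOSE, rose from 164 ± 7.80 to 277 ± 21.2 CPM, and RAPTOR1B, of the TOR complex, from 143 ± 3.75 to 216 ± 13.8 CPM. RBOHF, an NADPH oxidase gene, went from 136 to 3 counts (control over NaCl 47.6, 95% counting interval 16.0 to 234). Of the related kinases, AKIN11 of the SnRK1 family rose (0.86 ± 0.0848) and AKIN10 fell (-0.17 ± 0.0667, edgeR adjusted p = 0.0301), while SOS2 was at 0.27 ± 0.121 (edgeR adjusted p = 0.0543). The call of AKIN10 was lost in each of the 6 fits without 1 of the wild-type libraries, with no scaling factors, with no filter and without the 5 libraries richest in 18S rRNA. With RLE factors, the stricter filter or limma voom, and without wild-type control replicate 2, 2 of these kinases were higher.

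In the libraries labelled camta6-5, NaCl gave 5 higher and 7 lower receptors, 6 higher and 0 lower phosphatases, 9 higher and 1 lower Raf-like kinases, 6 higher and 1 lower bZIP genes, 3 higher and 1 lower other substrates, and 1 higher and 0 lower related kinases, where 28.2% of all genes were higher and 27.5% lower. Without the 5 libraries richest in 18S rRNA these counts were 2 and 7 receptors, 5 and 0 phosphatases, 5 and 0 Raf-like kinases, 5 and 1 bZIP genes, 0 and 1 other substrates, and 0 and 0 related kinases. The interaction, which passed upward for 27.1% and downward for 21% of all genes, passed for 4 receptors upward and 1 downward, among them PYR1 (0.77 ± 0.147), PYL4 (1.07 ± 0.208) and PYL1 (0.92 ± 0.204). The downward call among receptors was lost with the replicate block, in DESeq2, with no filter, in 8 of the 12 fits without 1 library and without the 5 libraries richest in 18S rRNA. It passed downward for 4 phosphatases and upward for 0, with HAI3 at -1.77 ± 0.308, HAI2 at -1.44 ± 0.297 and AHG1 at -1.05 ± 0.263. For Raf-like kinases 6 were lower and 1 higher, with AT4G23050 at -0.47 ± 0.132, AT1G16270 at -0.29 ± 0.0853 and AT3G06620 at -0.50 ± 0.146. For bZIP genes 4 were lower and 0 higher, with ABI5 at -0.96 ± 0.151, ABF1 at -1.15 ± 0.381 and ABF2 at -0.66 ± 0.228. For other substrates 2 were higher (RBOHF at 3.28 ± 0.494 and BHLH122 at 0.58 ± 0.176) and VCS lower (-0.29 ± 0.111). The downward call of VCS was lost with no filter. It was also lost without wild-type control replicate 1, wild-type NaCl replicate 1 or 2, camta6-5 control replicate 2, or any camta6-5 NaCl replicate. For related kinases AKIN10 was higher (0.25 ± 0.0945) and AKIN11 lower (-0.45 ± 0.12). The upward call of AKIN10 was lost with RLE factors, with no filter and in DESeq2. Leaving out 1 library lost it as well, except for camta6-5 control replicate 1 and camta6-5 NaCl replicate 3. Median interactions were 0.49 for receptors, -0.43 for phosphatases, -0.19 for Raf-like kinases, -0.48 for bZIP genes, 0.35 for other substrates and -0.088 for SnRK2 genes, beside 0.054 over all genes. Leaving out those 5 libraries rich in 18S rRNA gave interaction counts of 2 higher and 0 lower receptors, 0 and 3 phosphatases, 1 and 0 Raf-like kinases, 1 and 1 bZIP genes, 2 and 0 other substrates, and 0 and 1 related kinases.

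**Figure D4:**
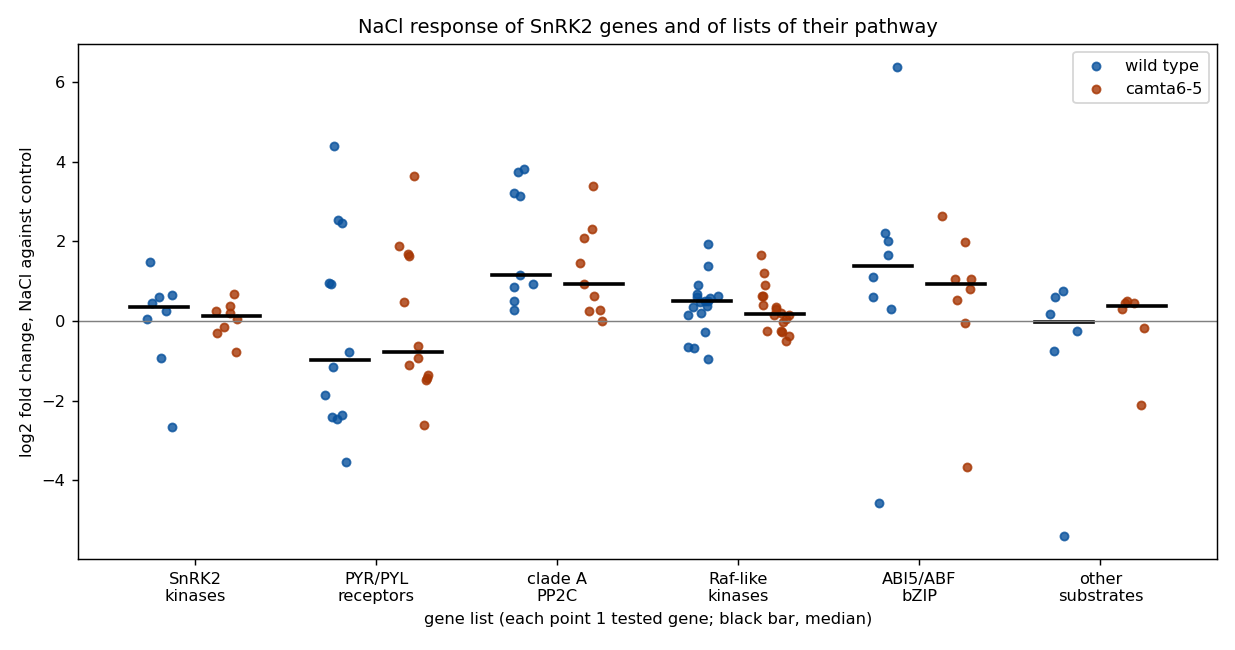
Log2 fold change of NaCl against control (vertical axis) for each tested gene of 6 lists, in wild type and in camta6-5, with the median as a black bar. All 9 PP2C genes lie above 0 in wild type, while the receptors spread from -3.55 to 4.40 and the SnRK2 genes from -2.67 to 1.48. The highest receptor value is that of PYL12, which had 1 count in wild-type control and 30 in wild-type NaCl.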

How the data were processed

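RNA of 12 libraries (4 groups of 3) was sequenced from unstranded TruSeq libraries, the kit being named in the labels' protocols. The deposited table holds raw read counts per gene, not normalized. The submitters' processing notes name cutadapt 1.9, TopHat2 2.1.0, Bowtie2 2.2.6, HTSeq 0.6.1, DESeq2 1.10.0 and the build TAIR10, and the treatment of reads that fall on several genes is not given in the sources used here.

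Here edgeR 4.0.16 (R 4.3.3) was applied to these counts. filterByExpr (minimum count 10, minimum total 15) kept 18515 of 33602 genes, with TMM scaling. All 12 libraries entered 1 quasi-likelihood fit of the 4 group means, which leaves 8 residual degrees of freedom. Tests were two-sided, with Benjamini-Hochberg adjustment over all tested genes and a threshold of 0.05. The SE is the absolute log2 change divided by the square root of F. Nothing in the labels says that the libraries of a group came from separate cultures, so p-values measure the spread between these libraries, which may be technical. Replicates of a group differed by more than counting noise (chi-square per degree of freedom 10.1 to 53.9). The code of the model fit was run on simulated counts, drawn with the spread that the fit itself had estimated and with few genes changed. Such a run cannot check the estimates of spread, or the scaling where most genes change.

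Labels number replicates 1 to 3 in each group. Between the 2 control groups, same-numbered libraries deviated together (r = 0.225, 0.179 and 0.27), which by the rule used (every r over 0.1) pairs them, from the data and not from the labels. In the other group pairs this did not hold for all numbers. Over all group pairs, r was over 0.1 in 7 of 18 same-numbered pairs of libraries. It was over 0.1 in 5 of 36 differently numbered pairs, where it reached 0.266. Deviations within a group cancel out, so these r values are not independent. The replicate block used the same numbers in every group, not only in the controls.

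Lengths, windows and sequences are from RefSeq TAIR10.1 (Biopython 1.88, Python 3.11.15). All 10 members matched, and 32834 of 32835 matched nuclear genes overlapped their own RefSeq gene in the table's coordinates. Capital-letter stretches extend a shared run by 20 bases on each side. Protein sequences were not used here. Members, lists and the rule for named genes (all members, up to 3 genes per list with the lowest adjusted p in wild type and in the interaction, and the 2 most similar genes per member) were chosen with earlier results of these data known. Alternatives were RLE or no scaling factors, no or a stricter filter, DESeq2 1.42.0, limma 3.58.1 voom, fewer groups, the replicate block and leaving out libraries.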

Additional observations from a re-analysis of the deposited data

Results flagged for a closer look

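The NaCl response of 5 SnRK2 genes differed between the genotypes in the test of the interaction, the log2 response in camta6-5 minus that in wild type. The difference was -0.80 for SnRK2.10, -0.41 for SnRK2.4 and -0.82 for SnRK2.6, whose wild-type responses were rises. It was 0.63 for SnRK2.1 and 1.895 for SnRK2.5, whose wild-type responses were falls. Of these 5 genes, SnRK2.6 lost its call in 6 of the 12 fits without 1 library. All 5 differences were opposite in sign to the wild-type response, with which they share the 6 wild-type libraries. In that comparison 48.1% of all tested genes passed. How often a passing difference opposes the wild-type response over all genes was not counted. NaCl calls covered 77.5% of all tested genes in wild type and 55.6% in camta6-5. With 3 libraries per group no search for single deviating libraries was made.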

How the results depend on the processing

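The counts of SnRK2 genes called for NaCl in wild type (5 higher, 2 lower), without NaCl between genotypes (0 and 0) and with NaCl between genotypes (2 and 3) stayed within 1.5 times under every alternative run. For NaCl in camta6-5, leaving out 1 library gave 2 to 4 higher and 1 to 2 lower against 3 and 2 reported, and leaving out the 5 libraries richest in 18S rRNA gave 1 and 0. In the interaction that setting gave 1 lower gene against 3. Leaving out 1 library gave 2 higher and 2 to 3 lower SnRK2 genes in the interaction, against 2 and 3 reported. The interaction call of SnRK2.6 was lost in 6 of those 12 fits. The replicate block changed no SnRK2 call (5 and 2, 3 and 2, 0 and 0, 2 and 3, and 2 and 3 higher and lower in the 5 comparisons). Among the pathway lists it moved the counts for NaCl in camta6-5 to 8 higher phosphatases, 9 higher and 2 lower Raf-like kinases and 4 higher other substrates, and those of the interaction to 4 higher and 0 lower receptors and 1 higher and 4 lower Raf-like kinases. With 1 library left out, the interaction called 0 to 1 Raf-like kinases higher and 4 to 7 lower, and 1 to 4 bZIP genes lower. Of 640 log2 values of single SnRK2 genes under 21 settings, 587 kept direction and side of the threshold, 17 were no longer called, 3 became called and 33 changed sign. None of the 33 had been called, and the lowest adjusted p among them was 0.491. SnRK2.2 between genotypes with NaCl went to -0.023 with RLE factors, -0.019 with no factors, -0.0023 with no filter, -0.011 with the stricter filter, -0.023 in DESeq2 and -0.016 with only 2 groups, and from -0.017 to 0.062 with 1 library left out. SnRK2.10 between genotypes without NaCl went to -0.018 with no factors and -0.015 without the libraries richest in 18S rRNA, which also gave 0.044 for SnRK2.2 there and -0.024 for its interaction. The interaction of SnRK2.8 was -0.015 with RLE factors and -0.014 in DESeq2. With 1 library left out, values without NaCl ran from -0.036 to 0.062 for SnRK2.10, -0.32 to 0.20 for SnRK2.5 and -0.16 to 0.15 for SnRK2.6, and those of SnRK2.8 from -0.094 to 0.25 for NaCl in wild type, -0.093 to 0.21 in camta6-5 and -0.20 to 0.17 in the interaction. Scaling moved the median of all genes by at most 0.056. Without division by length, subclass I held 38.1% in wild-type control and 44.4% in wild-type NaCl, and subclass III 57.9%, 52.7% and, in camta6-5 NaCl, 58.6%. For each value that moved, the cause was not tested. Depth limits SnRK2.7 and SnRK2.9, with 0 to 14 counts per library.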
